A study of Mus musculus with 22 samples.

Results

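Loss of VISTA was compared with its presence in bone marrow myeloid cells grown in normoxia, over every gene that could be tested. The comparison used 8 of the 22 libraries of the series, 4 from wild-type (WT) and 4 from knockout (KO) cultures, and its members are the 13950 genes that passed a filter on low counts. VISTA, the product of Vsir, is an inhibitory immune checkpoint protein carried by myeloid cells. The wider study, whose title joins VISTA to metabolism, STAT3 and polyamines in myeloid-derived suppressor cells, also holds hypoxia cultures and MC38 tumor samples. Both genotypes are labelled with the strain background C57BL/6N. Bone marrow myeloid progenitors of both were grown with GM-CSF and IL-6 until day 4, and the suppressor cells were purified before RNA was taken. The labels call the 4 cultures of each genotype independent biological replicates. They do not name the allele, the sex or the age of the mice, the marker used for purification, or whether marrow was pooled. The KO columns carry a code and were read as KO because the other columns are named WT.

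GM-CSF and IL-6 together push marrow progenitors toward immature neutrophils and monocytes that can restrain T cells, which is why such cultures serve as a model of suppressor cells. Neutrophils fill their granules in a fixed order as they mature: primary (azurophil) granule proteins are made first, then those of secondary (specific) granules, then those of tertiary (gelatinase) granules. Growing precursors make much protein and depend on amino acid supply, which the factor ATF4 and C/EBP partners adjust by raising amino acid transporters, synthetic enzymes and the aminoacyl-tRNA synthetases that load tRNAs.

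Levels are given as CPM, counts per 1000000 of the library size after TMM scaling, in the order of replicates 1 to 4. The TMM factors ran from 0.926 in KO replicate 4 to 1.06 in WT replicate 1, so CPM are not plain shares of counts. Fold changes are on the log2 scale, KO over WT, each with its standard error (SE). Mean levels are given ± SD over the 4 libraries of a genotype. A gene is said to have risen or fallen where the edgeR quasi-likelihood test gave a Benjamini-Hochberg adjusted p under 0.05 over all 13950 genes. By this measure 995 genes (7.13%) rose and 582 (4.17%) fell, 1577 in all (11.3%). Every list count below stands beside these shares. With library size alone and no TMM factors, 726 rose and 951 fell, and the median log2 fold change of all genes moved from -0.020 to -0.11. The groups did not overlap for 2794 genes (20%). The median called gene differed by 1.52-fold, and 349 differed by at least 2-fold, of which 251 were higher and 98 lower in KO.

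Depth was even, at 23409142 to 23722932 counts per library. Transcripts of the mitochondrial genome took 3.93% to 4.91% of counts in WT and 4.55% to 5.72% in KO. On a first principal component holding 65.6% of the variance, KO replicate 4 lay at 35.6 and the other KO libraries at 0.207 to 13.9, while WT replicate 3, at -3.85, lay nearest to KO and the other WT libraries lay at -22.3 to -14.1. The number of calls depended on single libraries: it was 469, 723 and 632 without WT replicate 1, 2 or 4, 696 without KO replicate 3, and 2210 and 2233 without WT replicate 3 or KO replicate 2. Without both KO replicate 4 and WT replicate 3 it was 2881. Of the called genes, 424 kept their call whichever of the 8 libraries was left out. The rules for naming genes did not use this, and 124 of the 290 named genes that were called kept their call in this way. For the others, the libraries on which a call rests are given by genotype and replicate (WT 1 is WT replicate 1), with the highest adjusted p by edgeR when 1 of them is left out. In bulk RNA, fewer cells of a type and less RNA per cell cannot be told apart.

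Vsir itself (ENSMUSG00000020101, chromosome 10, 60346851 to 60372684, plus strand, GRCm38) read 651, 653, 856 and 691 CPM in WT and 139, 144, 183 and 242 CPM in KO. Each KO library lay far below each WT library, and KO kept 24.8% of the WT mean. A two-sided exact permutation test on log2(CPM + 1) gave p = 0.0286, the smallest p that 4 against 4 allows.

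Among cytokine receptor genes, those of IL-6 and of G-CSF, which is not named as added to these cultures, were higher in KO. Those of GM-CSF did not pass the test. Il6ra, the binding chain of the IL-6 receptor, had 118, 95.2, 127 and 102 CPM in WT and 163, 132, 159.7 and 252 CPM in KO. Il6st, which encodes the shared signalling chain gp130, had 61.9, 45.6, 61.4 and 46.6 CPM in WT and 77.8, 63.3, 77 and 120 CPM in KO. For both genes, every KO library lay above every WT library. Csf3r, the G-CSF receptor of the neutrophil lineage, had 154, 153, 261 and 171 CPM in WT and 341, 279, 382 and 567 CPM in KO (log2 fold change 1.08 ± 0.22 SE, adjusted p = 0.0129), with KO replicates 3 and 4 highest and no overlap. The stem cell factor receptor gene Kit rose (log2 fold change 0.72 ± 0.13 SE) and Lifr, the receptor of leukemia inhibitory factor, rose from a low level (2.06 ± 0.526 CPM in WT against 4.5 ± 0.25 CPM in KO, SD, n = 4 each). In contrast, the GM-CSF receptor genes Csf2ra (log2 fold change 0.21, adjusted p = 0.156 by edgeR) and Csf2rb (-0.060, adjusted p = 0.622) did not pass, nor did the M-CSF receptor gene Csf1r (-0.20, adjusted p = 0.239).

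Downstream of IL-6, Socs3, a feedback inhibitor induced by STAT3, rose (log2 fold change 0.43), as did Jak2 (0.29) and Pias3, which encodes a STAT3 inhibitor (0.54 ± 0.11 SE). Pim3, a survival kinase gene, fell (log2 fold change -0.77 ± 0.17 SE). In all, 6 of 23 IL-6 and STAT3 genes rose and 1 fell (3 called without WT 1, 2 or 4 or KO 3), with a median of 0.14 beside -0.020 over all genes. Stat3 itself did not pass (log2 fold change 0.30, adjusted p = 0.108 by edgeR). Il6ra and Jak2 lost their calls without WT 1, 2 or 4 or KO 3 (adjusted p up to 0.0961 and 0.105), and Il6st and Socs3 lost their calls without WT 1, 2 or 4 or KO 1, 3 or 4 (adjusted p up to 0.122 and 0.116). Csf3r lost its call without WT 1 (adjusted p up to 0.0589), and Csf2ra gained a call without WT 3 (adjusted p 0.0334).

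The neutrophil granule genes that rose were those of the later granules. None of the 7 primary granule genes passed by edgeR (2 had an unadjusted p under 0.05, and 2 passed by DESeq2). Mpo, the myeloperoxidase gene, averaged 493 ± 105 CPM in WT against 499 ± 73.4 CPM in KO (log2 fold change 0.017, adjusted p = 0.949), with Elane, neutrophil elastase, at 0.13 (adjusted p = 0.522). Among secondary granule genes 7 of 12 rose and none fell (median 0.53). For tertiary granule and late neutrophil genes the counts were 12 of 26 higher and none lower, with a median of 0.52. Of those 12, Mcpt8 (2.06 ± 0.272 CPM in WT against 3.48 ± 0.567 CPM in KO) is a basophil protease gene. It is counted again on the mast cell and basophil list below. The shares of the granule lists stand beside the 7.13% of all genes that rose. The lists come from general knowledge, but earlier results had already shown granulocyte genes higher in these cultures, so their direction is no independent evidence.

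Camp, which encodes the antimicrobial peptide of specific granules, had 398, 509, 570 and 525 CPM in WT and 676, 851, 1077 and 882 CPM in KO. All WT libraries lay below all KO libraries, and the highest values were those of KO replicates 3 and 4. Cd177, a neutrophil surface protein stored in specific granules, had 828, 1115, 1002 and 1153 CPM in WT and 1372, 1714, 1888 and 1788 CPM in KO, again without overlap. Itgb2l (log2 fold change 0.77 ± 0.14 SE) rose as well. Lactoferrin (Ltf, log2 fold change 0.83 ± 0.18 SE), which binds iron, and the neutrophilic granule protein gene Ngp (0.51 ± 0.13 SE) rose too. Ngp is so abundant that its mean shift, from 12124 to 17304 CPM, was the largest of any gene that rose.

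Of the tertiary genes, the leukolysin gene Mmp25 had 40.3, 52, 51.7 and 66.4 CPM in WT and 87.4, 76.6, 141 and 125 CPM in KO, and the peptidoglycan-binding protein gene Pglyrp1 had 317, 490, 565 and 468 CPM in WT and 643, 845, 975 and 781 CPM in KO. Neither showed overlap between genotypes. The gelatinase gene Mmp9 (log2 fold change 1.10 ± 0.26 SE), the collagenase gene Mmp8 (1.02 ± 0.28 SE) and the surface marker Ly6g (1.11 ± 0.25 SE) rose. Ltf lost its call without WT 1 or KO 3 (adjusted p up to 0.0658), and Ngp, Mmp9 and Mmp8 lost their calls without WT 1, 2 or 4 or KO 3 or 4 (adjusted p up to 0.0903, 0.0858 and 0.11). Ly6g lost its call without WT 1 or 2 or KO 3 or 4 (adjusted p up to 0.0922). The secondary count was 3 without WT 1 or KO 3, and the tertiary count was 2 without WT 1, 3 without KO 3, 4 without WT 2 and 7 without WT 4.

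**Figure D1:**
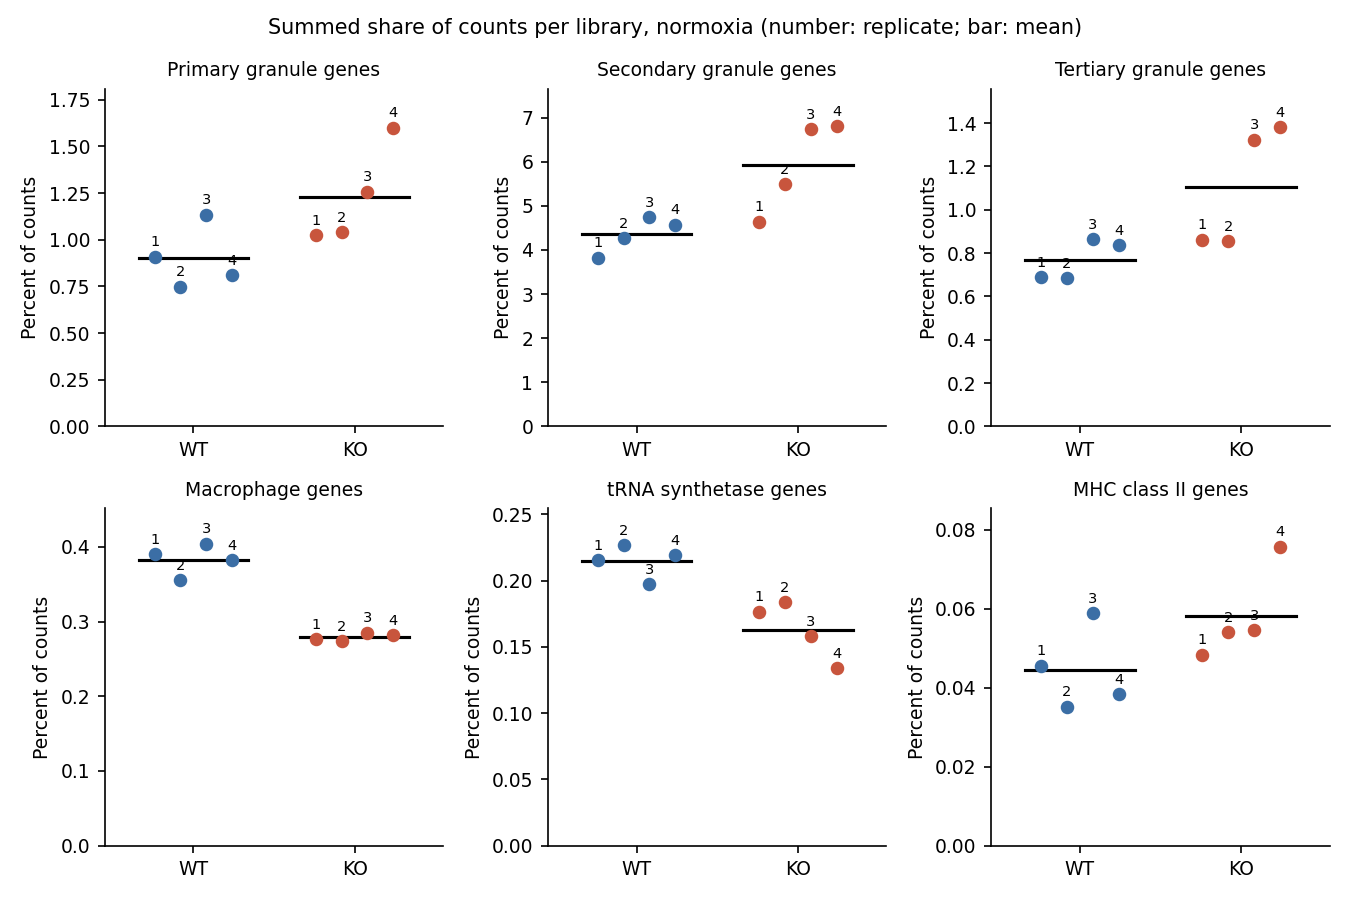
Summed CPM of 6 gene lists, as percent of the TMM-scaled library size, in each of the 4 WT and 4 KO normoxia libraries. Points are numbered by replicate, with a bar at each group mean. The axis label, percent of counts, stands for these scaled values. Granule sums of each kind and class II sums overlapped between genotypes, macrophage sums lay at 0.356% to 0.404% in WT and 0.274% to 0.285% in KO, and no test was made of the sums. Lyz2 (6895 ± 1446 CPM in WT against 10009 ± 2789 CPM in KO), which did not pass and is also on the secondary list, made up most of the primary sums. The largest class II member was Ctss (248 ± 62.2 CPM in WT against 242 ± 61.8 CPM in KO), which did not pass.

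As the plot of summed shares shows, the secondary granule list took 3.83%, 4.26%, 4.74% and 4.57% of the TMM-scaled library size in WT and 4.64%, 5.49%, 6.74% and 6.81% in KO. Relative to plain shares of counts, the scaling lowers the value of WT replicate 1 (factor 1.06). It raises those of KO replicates 3 and 4 (0.945 and 0.926). KO replicates 2, 3 and 4 stood above all WT libraries, while KO replicate 1 lay within the WT range. The tertiary list took 0.69%, 0.684%, 0.864% and 0.837% of the scaled size in WT and 0.861%, 0.855%, 1.32% and 1.38% in KO. The sums of KO replicates 3 and 4 were highest and those of KO replicates 1 and 2 reached just the level of the upper WT libraries.

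Some transcription factor genes of the neutrophil lineage rose. Cebpe, required for secondary granules, had 94.8, 115, 129 and 109 CPM in WT and 159, 179, 184 and 161 CPM in KO (log2 fold change 0.61 ± 0.10 SE, adjusted p = 0.00537), without overlap. Cebpd (log2 fold change 0.62 ± 0.13 SE), Klf5 (0.48) and Gfi1 (0.34) also rose, and 4 of 15 regulators rose in all (1 called without WT 1 and 2 without WT 4). Cebpa (log2 fold change 0.13, adjusted p = 0.474 by edgeR), Spi1, which encodes PU.1 (0.22, adjusted p = 0.127), and the monocyte factor gene Irf8 (0.034, adjusted p = 0.909) did not pass. Cebpd lost its call without WT 1 (adjusted p up to 0.0585), and Klf5 lost its call without WT 1 or 4 (adjusted p up to 0.0763). Gfi1 lost its call without WT 1, 2 or 4 or KO 1, 2 or 3 (adjusted p up to 0.121).

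Genes for granulocyte effector functions outside the granules rose as well. In the NADPH oxidase, which makes superoxide, the cytosolic subunit gene Ncf4 (log2 fold change 0.35) and the GTPase gene Rac2 (0.42) rose, 4 of 10 list members in all (0 called without WT 1, 2 or 4 or KO 3), while the catalytic Cybb did not pass (0.17, adjusted p = 0.278 by edgeR). The leukotriene enzyme gene Alox5 rose too (log2 fold change 0.47 ± 0.10 SE). Ncf4 and Rac2 lost their calls without WT 1, 2 or 4 or KO 3 (adjusted p up to 0.106 and 0.101), and Alox5 lost its call without WT 1 or KO 3 (adjusted p up to 0.0767).

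Some receptors for antibody and microbes rose as well. Fcgr2b, the inhibitory Fc receptor, had 139, 121, 163 and 144 CPM in WT and 325, 306, 407 and 431 CPM in KO (log2 fold change 1.38 ± 0.13 SE, adjusted p = 0.000162). The lowest KO library exceeded the highest WT library. Fcgr4, an activating receptor, rose (log2 fold change 0.95 ± 0.22 SE), as did the Fc receptor-like gene Fcrlb (0.878 ± 0.364 CPM in WT against 4.77 ± 0.794 CPM in KO), so 3 of 7 genes of the list rose. Of the microbial sensors, the flagellin receptor gene Tlr5 rose from a low level (1.75 ± 0.638 CPM in WT against 5.81 ± 3.08 CPM in KO), whereas the endotoxin receptor gene Tlr4 did not pass (log2 fold change 0.026, adjusted p = 0.876 by edgeR). Fcgr4 lost its call without WT 1, 2 or 4 or KO 3 (adjusted p up to 0.0814), and Tlr5 lost its call without WT 1 (adjusted p up to 0.0513).

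The list of inhibitory receptors, the class to which VISTA belongs by function, also holds activating partners from paired receptor families. Of its 25 genes 7 rose and 1 fell (median 0.35), and 3 of those that rose, Pira2, Pilrb1 and Pilrb2, encode activating partners (Pilrb1 called in 6 and Pilrb2 in 4 of the 8 fits with 1 library left out). Siglecg, a sialic acid receptor, had 20.2, 22.9, 27 and 26.5 CPM in WT and 41.6, 37.6, 46.4 and 34.6 CPM in KO, without overlap. The inhibitory receptor gene Cd33 (log2 fold change 0.64 ± 0.15 SE) and the activating Pira2 (0.59 ± 0.11 SE) rose. Lair1, a collagen receptor, fell (log2 fold change -0.42 ± 0.10 SE). The genes of the Pir and Pilr families are close paralogs, so how reads were divided among them is uncertain. Cd33 lost its call without WT 1, 2 or 4 or KO 3 (adjusted p up to 0.0875), and Lair1 lost its call without WT 1 or KO 1 (adjusted p up to 0.0739). The list's count was 2 without WT 1 and 4 without WT 2 or 4 or KO 3.

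Adhesion genes went both ways. The junction receptor gene Jaml rose (5.11 ± 1.71 CPM in WT against 18.8 ± 5.87 CPM in KO, log2 fold change 1.88 ± 0.26 SE). Cd9, a tetraspanin gene, had 281, 242, 300.4 and 288 CPM in WT and 121, 119, 164 and 149 CPM in KO, the KO libraries lying below all WT libraries. Icam1 fell (log2 fold change -0.46 ± 0.092 SE). The integrin genes Itgam (log2 fold change 0.47, adjusted p = 0.0648 by edgeR) and Itgb2 (0.19, adjusted p = 0.232) did not pass. Of the chemokine and lipid receptors, S1pr4 rose (log2 fold change 0.75 ± 0.093 SE), as did the marrow retention receptor gene Cxcr4 (0.55 ± 0.12 SE), while Ccrl2 fell (-0.64 ± 0.12 SE). Cxcr4 lost its call without WT 1, 2 or 4 (adjusted p up to 0.0651), and Itgam gained a call without KO 1 or 2 (adjusted p 0.0354).

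Macrophage genes moved in the opposite direction to those of granules, with exceptions. Of 27 measured, 9 fell and 4 rose, beside 4.17% and 7.13% of all genes. Lpl, lipoprotein lipase, was the most abundant of those that fell, with 1740, 1665, 1332 and 1700 CPM in WT and 996, 918, 861 and 608 CPM in KO, and the groups were apart. Spp1, osteopontin, had 298, 236, 374 and 264 CPM in WT and 88.1, 109, 93.6 and 96.9 CPM in KO (log2 fold change -1.60 ± 0.14 SE, adjusted p = 0.000104), with each KO library far under each WT library. The scavenger receptor gene Marco fell from a low level (1.53 ± 0.414 CPM in WT against 0.293 ± 0.0552 CPM in KO). The summed macrophage list read 3900, 3557, 4041 and 3821 CPM in WT and 2761, 2739, 2849 and 2816 CPM in KO, without overlap, and Lpl and Spp1 together account for most of that sum's change.

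The members that rose were of another kind: the complement genes C1qa (0.502 ± 0.221 CPM in WT against 3.44 ± 1.87 CPM in KO), C1qb (3.67 ± 1.54 CPM in WT against 13.8 ± 5.38 CPM in KO) and C1qc (1.68 ± 1.37 CPM in WT against 7.14 ± 3.08 CPM in KO) and the receptor gene Lyve1 were all at low levels in WT. Broad macrophage and monocyte genes did not pass, among them Adgre1 (F4/80, log2 fold change 0.12, adjusted p = 0.521 by edgeR), Cd68 (-0.25, adjusted p = 0.115) and Ccr2 (0.40, adjusted p = 0.24). Ly6c2, a monocyte marker, had log2 fold change 0.28 with adjusted p = 0.0637 by edgeR and had no overlap. C1qc lost its call without WT 1 (adjusted p up to 0.0639), and Lyve1 lost its call without WT 1 or 4 (adjusted p up to 0.0568). Ly6c2 gained a call without WT 3 or KO 4 (adjusted p 0.0351). The count of called macrophage genes was 8 without WT 1.

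Several genes that handle lipid in macrophages fell too. Pparg, the nuclear receptor that drives lipid uptake, fell (log2 fold change -0.80 ± 0.19 SE), as did the fatty acid carriers Fabp5 (91.2 ± 8.57 CPM in WT against 62.4 ± 4.97 CPM in KO) and Fabp4 (-1.41 ± 0.35 SE), the sterol sensor gene Nr1h3 (-1.02 ± 0.22 SE) and the lysosomal lipase gene Lipa (-0.44 ± 0.076 SE). In total 8 of 26 fatty acid oxidation and uptake genes fell and none rose (median -0.16). Fabp4, Fabp5 and Nr1h3 were already counted among the macrophage genes that fell, and Fabp4 and Fabp5 are counted again here. Among the 8 were 4 enzymes of oxidation, Acads (log2 fold change -0.38 ± 0.097 SE), Eci1 (-0.43 ± 0.11 SE), Decr1 (-0.42 ± 0.11 SE) and Hadh (-0.37 ± 0.11 SE), the last 2 called in 2 of the 8 fits with 1 library left out. The enzyme genes Cpt1a (log2 fold change 0.066, adjusted p = 0.663 by edgeR) and Acadm (0.085, adjusted p = 0.437) did not pass. Axl, a receptor for dying cells, had 123, 85.5, 139 and 99.5 CPM in WT and 58.6, 53.2, 44.3 and 49.7 CPM in KO, and the endocytic adaptor gene Dab2 (log2 fold change -0.83 ± 0.12 SE) and the lysosomal proton pump subunit gene Atp6v0d2 (-1.59 ± 0.25 SE) fell as well. The groups did not overlap for Axl. Pparg lost its call without WT 1, 2 or 4 (adjusted p up to 0.0717), and Fabp4 lost its call without WT 1 or 4 or KO 3 (adjusted p up to 0.0855). Nr1h3 lost its call without KO 3 (adjusted p up to 0.0512), and Acads and Eci1 lost their calls without WT 1 or 4 or KO 1 or 3 (adjusted p up to 0.0887 and 0.0788). The fatty acid count was 1 without WT 1 or 4, 2 without KO 3 and 5 without WT 2 or KO 1 or 4.

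Genes of antigen presentation by MHC class II were higher in KO at low absolute levels. Ciita, the master activator of class II genes, had 1.79, 0.736, 2.38 and 1.25 CPM in WT and 6.87, 9.06, 6.43 and 12.6 CPM in KO (log2 fold change 2.50 ± 0.31 SE, adjusted p = 0.00118). The chain gene H2-Aa had 10.4, 5.32, 18.1 and 7.14 CPM in WT and 32.2, 52.9, 37.3 and 83.5 CPM in KO. For both, all KO libraries lay above all WT libraries, and WT replicate 3 was the highest of its group. H2-Ab1 (log2 fold change 2.07 ± 0.34 SE), H2-Eb1 (2.34 ± 0.41 SE) and the peptide exchange gene H2-DMb2 (0.73 ± 0.14 SE) rose. The factors that hold the class II promoter together did not pass (Rfx5 log2 fold change -0.16, adjusted p = 0.297 and Rfxap 0.00070, adjusted p = 0.997 by edgeR), nor did any of the 19 class I genes (by edgeR 2 had an unadjusted p under 0.05, and 2 passed by DESeq2). Without WT replicate 3, 8 of the 13 class II genes were called rather than 5.

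Promoter stretches of a pair of class II genes are shown because the CTGATTGG element, the Y box bound by NF-Y that Ciita works through, can be seen in them. The bases come from RefSeq (GRCm38.p6) and end at the base before the annotated start, and capitals mark the element. H2-Aa lies on the minus strand at chr17:34287824-34287943 and H2-Eb1 on the plus strand at chr17:34305747-34305866.
H2-Aa: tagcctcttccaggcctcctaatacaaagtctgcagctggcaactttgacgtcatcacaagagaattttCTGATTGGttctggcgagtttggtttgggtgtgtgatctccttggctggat
H2-Eb1: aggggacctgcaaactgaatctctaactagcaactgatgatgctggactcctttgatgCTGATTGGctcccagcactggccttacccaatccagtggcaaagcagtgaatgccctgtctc
The element began 51 bases before the start in H2-Aa and 62 bases before it in H2-Eb1. Searched on both strands in windows from 250 bases before to 50 after each start, the element was found in 3 of 10 class II genes with a window, among them 2 of the 3 that rose, and in 4.7% of 27025 genes. A match is a stretch of letters and was not tested as a site.

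Of dendritic cell markers, 5 of 20 rose and 1 fell (1 called without WT 1, 2 without WT 2, 3 without WT 4 or KO 3 and 11 without WT 3). These counts stand beside 7.13% and 4.17% of all genes. The list sum averaged 776 CPM in WT and 1065 CPM in KO. Most of it was Cd24a (466 ± 42.4 CPM in WT against 729 ± 154 CPM in KO), a gene not limited to dendritic cells. Dpp4 (0.632 ± 0.319 CPM in WT against 2.07 ± 0.87 CPM in KO), Cd80, which encodes a ligand for T cells (log2 fold change 0.45 ± 0.12 SE), Cd24a (0.65 ± 0.14 SE) and the chemokine gene Ccl17 (6.26 ± 2.63 CPM in WT against 12.8 ± 3.41 CPM in KO) rose. Batf3, required for cross-presenting dendritic cells, fell (log2 fold change -1.40 ± 0.30 SE). The defining markers Zbtb46 (0.476 ± 0.132 CPM in WT against 0.968 ± 0.347 CPM in KO), Xcr1 (0.38 ± 0.0879 CPM in WT against 0.428 ± 0.165 CPM in KO) and Clec9a (0.352 ± 0.156 CPM in WT against 0.541 ± 0.272 CPM in KO) were near 0 and did not pass. Zbtb46 had no overlap (log2 fold change 1.02, adjusted p = 0.0576 by edgeR) and passed in 1 of the 8 fits with 1 library left out. Flt3 stayed under the filter with at most 0.183 CPM in any library. Dpp4 lost its call without WT 1 (adjusted p up to 0.0736), and Cd80 lost its call without WT 1, 2 or 4 or KO 3 (adjusted p up to 0.106). Cd24a lost its call without WT 1 or 2 or KO 3 (adjusted p up to 0.0702), and Ccl17 lost its call without WT 1, 2 or 4 or KO 2, 3 or 4 (adjusted p up to 0.0979).

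Markers of other lineages were low but shifted. Of mast cell and basophil genes 8 of 12 rose (5 called without WT 1 or 2 or KO 3), among them the protease gene Prss34 (4.51 ± 0.615 CPM in WT against 9.47 ± 0.827 CPM in KO), the histamine enzyme gene Hdc (23 ± 4.2 CPM in WT against 51.8 ± 10.2 CPM in KO) and the factor gene Gata2 (1.69 ± 0.28 CPM in WT against 3.81 ± 0.896 CPM in KO). The list sum ran from 330 to 453 CPM in WT and from 417 to 586 CPM in KO, and most of it was Srgn (279 ± 55.8 CPM in WT against 344 ± 72.2 CPM in KO), a gene of many blood cell types, which did not pass. Of eosinophil genes 6 of 9 rose (3 called without WT 1). Their sums ran from 99.9 to 131 CPM in WT and from 135 to 197 CPM in KO, and most of them was Ear2 (42.9 ± 9.18 CPM in WT against 45.8 ± 7.69 CPM in KO) and Ear6 (43.2 ± 8.29 CPM in WT against 51.9 ± 16.3 CPM in KO), which did not pass. Prg2, the major basic protein gene, rose, with 7.03 ± 2.09 CPM in WT against 18.6 ± 4.81 CPM in KO. Of B and plasma cell genes 4 of 9 rose, all of them genes of antibody chains. Igkc, Igha and Jchain rose from low levels, Jchain, the joining chain of secreted antibody, with 0.247 ± 0.212 CPM in WT against 4.09 ± 1.91 CPM in KO, and Ighm rose from a higher level (35 ± 5.72 CPM in WT against 62.8 ± 11.4 CPM in KO). The B cell marker Ms4a1 did not exceed 0.0838 CPM in any library. Of the 5 T and NK genes tested, 0 were called by edgeR or DESeq2, and 1 had an unadjusted p under 0.05. Of 5 megakaryocyte genes 2 rose and 1 fell, and of 15 progenitor genes 3 rose and 1 fell. Of 5 stroma genes 2 rose, and of 2 erythroid genes 1 fell. Those that fell were Vwf (24.2 ± 5.53 CPM in WT against 12.5 ± 2.53 CPM in KO), Hoxa9 (log2 fold change -1.02 ± 0.21 SE) and Car2 (-0.81 ± 0.15 SE). Each kept its call in all 8 leave-outs. The part of cells of other lineages in the other results was not tested.

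Genes that supply protein synthesis were lower in KO, mostly by small amounts. All 20 aminoacyl-tRNA synthetase genes lay below 0 (median -0.41), 11 of them fell and none rose, where 4.17% of all genes fell. Gars, which loads glycine, had 211, 214, 203 and 222 CPM in WT and 166, 167, 151 and 134 CPM in KO, with the KO libraries below every WT library. Sars, which loads serine, fell (log2 fold change -0.36 ± 0.077 SE), and so did Iars for isoleucine (-0.62 ± 0.15 SE). Called synthetases numbered 2 without WT 1, 2 or 4 or KO 3. Iars lost its call without WT 1, 2 or 4 or KO 3 (adjusted p up to 0.0825).

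Of ATF4 target and serine pathway genes 8 of 21 fell and none rose, with a median of -0.59. Asns, asparagine synthetase, had 73, 72.1, 88.4 and 77.3 CPM in WT and 48.6, 58.2, 39.4 and 36.2 CPM in KO (log2 fold change -0.77 ± 0.14 SE, adjusted p = 0.00809). KO replicate 4 was the lowest and the groups did not overlap. Atf3, a stress factor gene under ATF4, had 17.6, 17.9, 24 and 19.6 CPM in WT and 11.9, 12.5, 11.6 and 14.3 CPM in KO, again apart. Psat1 of the serine pathway (log2 fold change -0.80 ± 0.18 SE), the folate enzyme gene Aldh1l2 (1.54 ± 0.432 CPM in WT against 0.41 ± 0.213 CPM in KO) and Gpt2 (-0.88 ± 0.20 SE) fell, whereas the stress gene Ddit3 did not pass (0.11, adjusted p = 0.617 by edgeR) and 0 of 23 genes of the endoplasmic reticulum stress list were called by edgeR or DESeq2 (4 had an unadjusted p under 0.05). Psat1 lost its call without WT 1 or 4 or KO 3 (adjusted p up to 0.0688), and Gpt2 lost its call without WT 1 or KO 3 (adjusted p up to 0.0658). The count was 3 without KO 3, 4 without WT 1, 5 without WT 4 and 13 without KO 2, and 13 by DESeq2, with 12 lower and 1 higher.

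Amino acid transporters fell for 6 of 18 and rose for none. The cystine importer gene Slc7a11 had 35.6, 41.8, 37.9 and 49.4 CPM in WT and 23.6, 25.8, 25.1 and 30.7 CPM in KO. The cationic amino acid transporter gene Slc7a2 had 31.5, 23.7, 31.3 and 32.8 CPM in WT and 12.4, 10.6, 12 and 9.81 CPM in KO (log2 fold change -1.41 ± 0.12 SE, adjusted p = 0.000107). Neither overlapped between genotypes, and Slc7a2 kept 37.5% of its WT mean. Slc7a8 (log2 fold change -0.36 ± 0.079 SE), the glycine transporter gene Slc6a9 (1.86 ± 0.363 CPM in WT against 0.747 ± 0.204 CPM in KO) and Slc1a4 (1.7 ± 0.238 CPM in WT against 0.925 ± 0.212 CPM in KO) fell. Slc7a8 lost its call without WT 2 or 4 or KO 3 (adjusted p up to 0.0595), and Slc1a4 lost its call without WT 1 or 4 or KO 3 (adjusted p up to 0.0848). The transporter count was 3 without WT 4 or KO 3.

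The C/EBP-ATF element TGATGNAA, through which ATF4 is known to act, is shown in capitals in promoter stretches of 4 of these genes (RefSeq, GRCm38.p6, each ending at the base before the start). Asns lies on the minus strand at chr6:7693210-7693329, Atf3 on the minus strand at chr1:191183334-191183453, Slc7a11 on the minus strand at chr3:50443614-50443733 and Gars on the plus strand at chr6:55037881-55038000.
Asns: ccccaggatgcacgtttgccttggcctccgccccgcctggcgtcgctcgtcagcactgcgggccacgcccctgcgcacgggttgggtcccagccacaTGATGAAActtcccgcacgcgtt
Atf3: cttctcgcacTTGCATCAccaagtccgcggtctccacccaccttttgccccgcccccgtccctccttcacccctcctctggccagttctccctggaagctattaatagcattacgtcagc
Slc7a11: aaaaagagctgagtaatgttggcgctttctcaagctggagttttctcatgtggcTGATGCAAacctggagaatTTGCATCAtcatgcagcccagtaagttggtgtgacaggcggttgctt
Gars: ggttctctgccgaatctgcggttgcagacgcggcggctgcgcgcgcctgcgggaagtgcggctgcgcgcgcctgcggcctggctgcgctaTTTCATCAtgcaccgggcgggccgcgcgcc
The element reads forward in Asns, as its reverse complement in Atf3 and Gars, and in both directions in Slc7a11. On both strands of the windows from 250 bases before to 50 after the start, it was present in 4.51% of 27025 genes, in 7 of 20 ATF4 and serine genes, in 5 of 12 tRNA synthetase genes and in 3 of 13 transporter genes with a window. Of the members that fell and had a window, 4 of 7, 4 of 6 and 2 of 5 held it, where 8, 11 and 6 fell in all. The ATF4 list was made of known targets, so a high share there follows in part from that choice. All these are shares of letters and do not show that ATF4 binds there.

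Gene families for folding, making and degrading protein had medians below 0 and few calls, as the strip plot of list members shows. Of 17 chaperone genes 6 fell (0 called without WT 1 or KO 3, 2 without WT 2 or 4 and 3 without KO 1 or 4), among them the chaperonin subunit gene Tcp1 (log2 fold change -0.48 ± 0.12 SE). Ribosome biogenesis had a median of -0.54 with 27 of 28 genes below 0, but 1 call, Npm1 (log2 fold change -0.55 ± 0.13 SE) (0 called without WT 1, 2 or 4 or KO 3, 5 without KO 2 and 11 without WT 3). Genes of cytosolic ribosomal proteins fell in 7 of 78 cases, with a median of -0.19 (0 called without WT 1, 2 or 4, 1 without KO 3, 2 without KO 1 or 4, 3 without WT 3 and 15 without KO 2). Those of mitochondrial ribosomal proteins fell in 10 of 76, with a median of -0.23 (3 called without WT 1 or 4 or KO 3, 4 without WT 2, 6 without KO 1, 16 without WT 3 and 19 without KO 2). Proteasome subunit genes fell in 5 of 47, with a median of -0.21 (0 called without WT 1 or 4 or KO 3, 1 without WT 2 or KO 1, 2 without KO 4, 11 without WT 3 and 12 without KO 2). No gene of these families rose. Mrpl52 (23.9 ± 1.18 CPM in WT against 15.7 ± 0.876 CPM in KO) and Mrpl55 (11.6 ± 0.812 CPM in WT against 7.28 ± 0.72 CPM in KO) of the mitochondrial ribosome kept their calls in all 8 leave-outs. The smaller medians here are near the size of the shift between scalings given above. Tcp1 and Npm1 lost their calls without WT 1, 2 or 4 or KO 3 (adjusted p up to 0.0763 and 0.0665).

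Few proliferation genes passed the test. Of 30 mitosis genes 0 passed by edgeR or DESeq2, 0 had an unadjusted p under 0.05, and Mki67 averaged 834 ± 101 CPM in WT against 981 ± 124 CPM in KO (log2 fold change 0.23, adjusted p = 0.184). Of 31 replication genes 30 lay below 0 (median -0.26) and 1 fell (0 called without WT 1, 2 or 4 or KO 3, 3 without WT 3 and 9 without KO 2), the helicase factor gene Gins1 (log2 fold change -0.41 ± 0.10 SE). Around the G1 decision, the cyclin gene Ccnd2 had 141, 211, 91 and 186 CPM in WT and 67.7, 86.8, 65.2 and 18 CPM in KO (log2 fold change -1.40 ± 0.38 SE, adjusted p = 0.0396). KO replicate 4 was by far the lowest library, and the lowest WT value lay just above the highest KO value. Myc had 98.3, 186, 71.8 and 136 CPM in WT and 73.7, 97.5, 76.9 and 17.4 CPM in KO and did not pass (log2 fold change -0.89, adjusted p = 0.199 by edgeR), with overlap and again the lowest value in KO replicate 4. Btg2, an antiproliferative gene, rose (65.6 ± 6.51 CPM in WT against 104 ± 20.4 CPM in KO). Of 18 cell cycle control genes 3 rose and 1, Ccnd2, fell, beside 7.13% and 4.17% of all genes. Besides Btg2, the kinase gene Cdk2 rose (log2 fold change 0.27 ± 0.077 SE, adjusted p = 0.0456 by edgeR). Cdkn2d rose as well (0.32 ± 0.090 SE, adjusted p = 0.045). Cdk2 was called in 1 and Cdkn2d in 2 of the 8 fits with 1 library left out. Gins1 lost its call without WT 1, 2 or 4 or KO 3 (adjusted p up to 0.0794), and Ccnd2 lost its call without WT 1, 2 or 4 or KO 1, 2, 3 or 4 (adjusted p up to 0.102).

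Glucose genes split. Of 24 glycolysis and lactate genes 6 fell, including Gapdh, with 3866, 4120, 4440 and 4050 CPM in WT and 2894, 2976, 3268 and 2357 CPM in KO, and no overlap. The phosphofructokinase gene Pfkl (log2 fold change -0.45 ± 0.090 SE) and Ldha (-0.40 ± 0.11 SE) fell as well. The 3 genes that rose were Slc2a3, the glucose transporter of neutrophils, with 104, 92.3, 139 and 127 CPM in WT and 163, 175, 236 and 335 CPM in KO, the hexokinase gene Hk3 (log2 fold change 0.45 ± 0.088 SE) and Pfkfb4 (0.68 ± 0.14 SE). KO replicate 4 was highest for Slc2a3, and the groups did not overlap. Hif1a, the oxygen-regulated factor gene, had 317, 289.6, 296 and 307 CPM in WT and 224, 203, 244 and 229 CPM in KO (log2 fold change -0.43 ± 0.080 SE), all KO libraries being below all WT libraries. Its targets Egln3 (log2 fold change -0.70 ± 0.14 SE), Pdk1 (-0.65 ± 0.13 SE), P4ha1 (-0.57 ± 0.12 SE) and Hilpda (-1.04 ± 0.16 SE) fell. Of the 24 genes tested on the hypoxia response list, 7 fell and none rose. That list does not hold every target of the factor, and Slc2a3 and Pfkfb4, which rose, are among those left out. Ldha lost its call without WT 1, 2 or 4 or KO 1 (adjusted p up to 0.0971), and Slc2a3 lost its call without WT 1 or 2 (adjusted p up to 0.0695). Pfkfb4 lost its call without WT 1 (adjusted p up to 0.0571). Calls of the glycolysis list numbered 3 without WT 1 and 5 without WT 2 or 4.

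Respiratory chain genes of the nucleus and of the mitochondrial genome had medians on opposite sides of 0. Nuclear genes of the respiratory chain fell in 5 of 79 cases (6.33%), beside 4.17% of all genes, and rose in none, with a median of -0.16 (0 called without WT 1, 2 or 4 or KO 3, 1 without KO 1, 2 without KO 4 and 13 without KO 2). The 13 protein genes of the mitochondrial genome all lay above 0 (median 0.37), and all 13 had an unadjusted p under 0.05 by edgeR. Of these 13, 3 rose, mt-Nd4, mt-Nd4l and mt-Cytb, beside 7.13% of all genes. In the citric acid cycle, Idh2 (log2 fold change -0.57 ± 0.12 SE) and Suclg2 (-0.62 ± 0.15 SE) fell, the only calls among 25 genes (0 called without WT 1, 1 without WT 2 or 4 or KO 3 and 4 without WT 3 or KO 2). The share of counts from the mitochondrial genome is given above, and the part of RNA quality in it was not tested. mt-Nd4, mt-Nd4l and mt-Cytb lost their calls without WT 1, 2 or 4 or KO 1, 3 or 4 (adjusted p up to 0.117, 0.115 and 0.123), and Idh2 lost its call without WT 1 (adjusted p up to 0.0513). Suclg2 lost its call without WT 1, 2 or 4 or KO 3 (adjusted p up to 0.0785).

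Antioxidant genes fell in part, and iron genes went both ways. Fth1, the ferritin heavy chain that stores iron, had 2828, 2993, 3665 and 3223 CPM in WT and 1900, 2058, 2236 and 2130 CPM in KO (log2 fold change -0.61 ± 0.10 SE, adjusted p = 0.00529). Cp, ceruloplasmin, which oxidises iron for export, had 25.9, 18, 23.6 and 17.9 CPM in WT and 8.78, 9.65, 9.38 and 6.79 CPM in KO. All KO libraries of both genes were under all WT libraries. Fth1, like Gapdh, has processed pseudogenes, so how reads were divided among the copies is uncertain. The exporter gene Slc40a1, ferroportin, rose (log2 fold change 0.89 ± 0.21 SE), as did the metalloreductase gene Steap4 from near 0 (0.29 ± 0.116 CPM in WT against 2.01 ± 1.38 CPM in KO). Of 22 NRF2 targets 7 fell and none rose, among them the peroxiredoxin gene Prdx1 (log2 fold change -0.46 ± 0.092 SE) and the heme oxygenase gene Hmox1 (-0.40 ± 0.097 SE). Nfe2l2, which encodes NRF2, did not pass (log2 fold change 0.052, adjusted p = 0.699 by edgeR). Slc40a1 lost its call without WT 1, 2 or 4 or KO 3 (adjusted p up to 0.0817), and Hmox1 lost its call without WT 1 or 4 or KO 1 or 3 (adjusted p up to 0.0849). The NRF2 count was 2 without WT 1 or 4, 3 without KO 3 and 4 without WT 2.

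Inflammatory mediators went both ways. Of 22 IL-1, IL-18 and inflammasome genes 2 fell, Il1a and Il1b, and 3 rose, Il18rap (log2 fold change 0.90 ± 0.16 SE), Il18bp (0.83 ± 0.19 SE) and Mefv (0.43 ± 0.12 SE) (3 called without WT 1 or 2 or KO 3). Il1a, with 6.99, 5.11, 4.97 and 6.93 CPM in WT and 1.32, 0.965, 1.21 and 0.55 CPM in KO, and Il1b, with 25.2, 22.1, 33.3 and 23.3 CPM in WT and 12.3, 11.7, 18.2 and 15.6 CPM in KO, had no overlap between genotypes. Csf1, the macrophage growth factor gene, fell (48.4 ± 5.94 CPM in WT against 27.4 ± 1.05 CPM in KO, log2 fold change -0.82 ± 0.096 SE), and so did Tnfsf9 (2.16 ± 0.288 CPM in WT against 0.682 ± 0.223 CPM in KO), Il6 (2.33 ± 0.463 CPM in WT against 1.01 ± 0.344 CPM in KO) and the chemokine genes Ccl4 (-1.05 ± 0.21 SE), Ccl9 (-0.58 ± 0.12 SE) and Cxcl2 (-1.18 ± 0.29 SE). Tnfsf13b, the B cell survival factor BAFF, rose (log2 fold change 1.07 ± 0.22 SE), while Tnf did not pass (-0.47, adjusted p = 0.157 by edgeR). Cytokine genes rose in 5 and fell in 4 of 19 cases (3 called without WT 1, 4 without KO 3 and 5 without WT 2), and chemokine genes in 2 and 5 of 15 (2 called without WT 1, 2 or 4 or KO 4 and 3 without KO 2). The feedback genes of NF-kB, Tnfaip3 (log2 fold change -0.50 ± 0.10 SE) and Tnip3 (-0.85 ± 0.14 SE), fell, 4 of 19 genes of that list in all with 1 higher (2 called without WT 1, 2 or 4 or KO 1 or 3 and 3 without KO 4). Ifi204, an interferon-inducible gene that fell, is not on the interferon list and is given below. Of the 38 interferon-stimulated genes on that list, 8 rose and none fell (median 0.35). Cmpk2, a nucleotide kinase gene among them, had 15.5, 17.2, 14.7 and 16.5 CPM in WT and 33.2, 34.4, 36.7 and 43.9 CPM in KO, the KO values all above the WT values. Il6 and Ccl9 lost their calls without WT 1 (adjusted p up to 0.0547 and 0.061), and Cxcl2 lost its call without WT 2, 3 or 4 or KO 1 or 4 (adjusted p up to 0.0902). Il18bp lost its call without WT 1 or 2 or KO 3 (adjusted p up to 0.0739), and Mefv lost its call without WT 1, 2 or 4 or KO 1, 3 or 4 (adjusted p up to 0.124). The interferon count was 3 without WT 2, 4 without WT 1 or 4, 5 without KO 3, 14 without KO 2 and 15 without WT 3. The list counts of this paragraph stand beside 7.13% of all genes that rose and 4.17% that fell, and several rest on few calls.

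Among genes by which myeloid cells restrain T cells, 9 of 24 fell, Vsir included, and 2 rose (3 called without WT 1, 4 without WT 4, 5 without KO 4, 6 without WT 2 and 7 without KO 3). Acod1, which makes itaconate, had 47.8, 47.2, 42.5 and 40.7 CPM in WT and 13.6, 16, 15.1 and 11.1 CPM in KO (log2 fold change -1.67 ± 0.12 SE, adjusted p = 2.255e-05). Ass1, which rebuilds arginine from citrulline, had 263, 307, 267 and 272 CPM in WT and 155, 158, 146 and 85.5 CPM in KO. No KO library of either gene reached the WT range. Arg1, arginase, had 24.1, 6.09, 50.3 and 24.2 CPM in WT and 1.66, 1.22, 8.26 and 3.85 CPM in KO, with overlap and a wide spread in both groups. Cd274, PD-L1, fell slightly (log2 fold change -0.39 ± 0.091 SE), and Entpd1, CD39, which removes extracellular ATP, rose (0.54 ± 0.15 SE). Odc1, the entry enzyme of polyamine synthesis, had 102, 130.3, 64.8 and 110.3 CPM in WT and 71.8, 81.9, 69.3 and 33.2 CPM in KO and did not pass (log2 fold change -0.67, adjusted p = 0.105 by edgeR). Arg1 lost its call without WT 1 or 4 or KO 1, 2 or 4 (adjusted p up to 0.155), and Cd274 lost its call without WT 1 or 4 (adjusted p up to 0.0717). Entpd1 lost its call without WT 1, 2 or 4 or KO 3 or 4 (adjusted p up to 0.117), and Odc1 gained a call without WT 3 (adjusted p 0.0468).

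Of 24 chromatin regulators 6 rose and 1 fell. Kdm6b, a histone demethylase gene, had 53.6, 61.2, 71.7 and 63.2 CPM in WT and 96.9, 85.3, 103 and 127 CPM in KO, without overlap. Kmt2d (log2 fold change 0.60 ± 0.14 SE) rose and Tet1 fell from a low level (1.15 ± 0.385 CPM in WT against 0.411 ± 0.128 CPM in KO). The circadian repressor gene Bhlhe41 had 5.09, 3.07, 4.84 and 4.61 CPM in WT and 0.594, 0.587, 0.804 and 0.78 CPM in KO, far lower in each KO library. Among matrix genes, the membrane protease gene Mmp14 fell (34 ± 3.51 CPM in WT against 13.3 ± 2.25 CPM in KO). Kmt2d lost its call without WT 1 or 2 (adjusted p up to 0.0882), and Tet1 lost its call without WT 2 or 4 or KO 3 (adjusted p up to 0.0586). Of the epigenetic list, the number called was 1 without WT 2, 2 without WT 1 or KO 3 and 3 without WT 4.

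**Figure D2:**
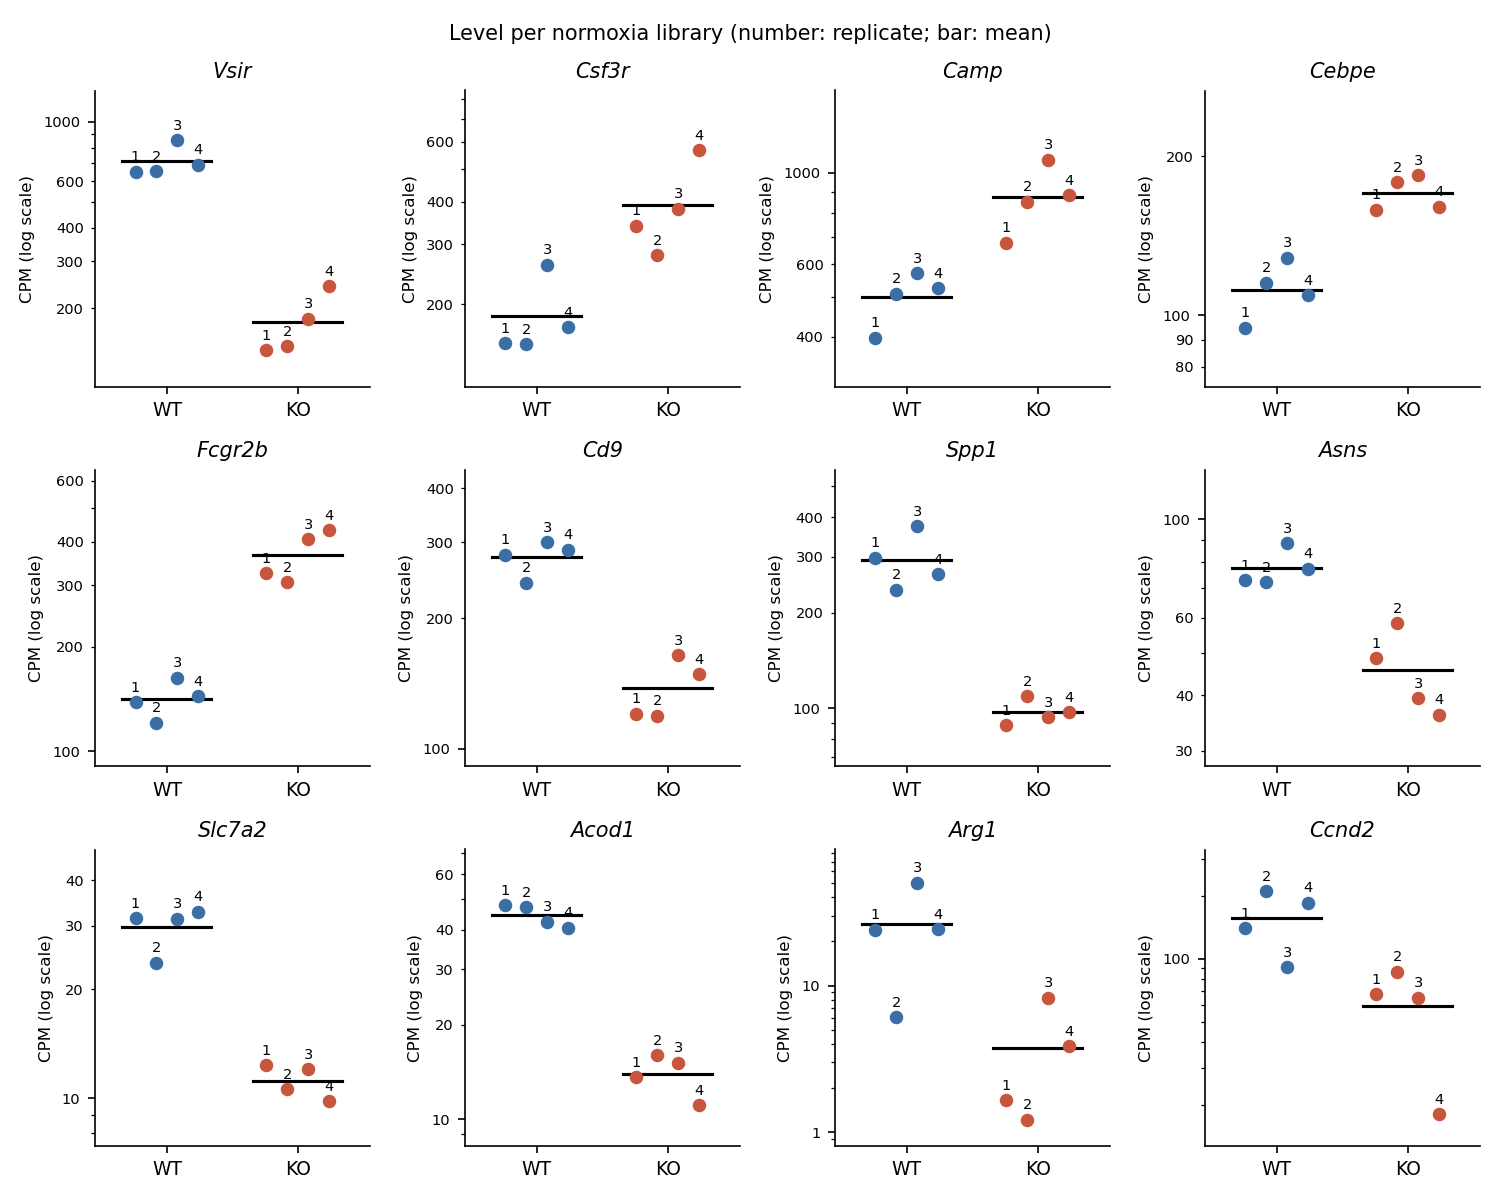
Level (CPM, log scale) of 12 genes in the 4 WT and 4 KO normoxia libraries, with each library as a point numbered by replicate and a bar at each group mean. The genotypes do not overlap for the genes shown other than Arg1, and Ccnd2 is lowest in KO replicate 4, at 18 CPM.

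Outside the lists, genes were chosen for a small p and no overlap between genotypes, so their low spread is part of the choice. Pttg1, securin, had 14.3, 13.5, 17.8 and 15.7 CPM in WT and 46.8, 44.5, 43 and 39.5 CPM in KO (log2 fold change 1.51 ± 0.10 SE, adjusted p = 2.049e-05). Rasgrp4, an exchange factor gene for Ras in myeloid cells, had 139.6, 159, 187 and 159 CPM in WT and 285, 269.5, 314 and 279 CPM in KO. Adpgk, an ADP-dependent glucokinase gene, had 241, 259.8, 282 and 257 CPM in WT and 431, 455, 531 and 614 CPM in KO. All KO libraries of these genes lay above all WT libraries, as the choice required. The GABA receptor subunit gene Gabbr1 (log2 fold change 1.13 ± 0.12 SE), Pi16 (1.04 ± 0.12 SE) and Ccno (1.08 ± 0.13 SE) also rose. Among list genes, the adaptor gene Grap rose from a low level, with 1.5 ± 0.332 CPM in WT against 26.1 ± 7.43 CPM in KO (log2 fold change 4.11 ± 0.24 SE).

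Among those that fell, Pid1 had 41.1, 40.4, 34.1 and 39.5 CPM in WT and 15.4, 15.6, 14.9 and 18.9 CPM in KO, and Luzp1 had 38.2, 30.1, 31.3 and 33.2 CPM in WT and 15.8, 12.5, 14.1 and 13.9 CPM in KO. KO libraries of both lay below all WT libraries, again as the choice required. Olfml2b (log2 fold change -1.31 ± 0.11 SE), the sulfate donor enzyme gene Papss1 (-0.81 ± 0.082 SE), the neuropilin gene Nrp2 (-0.75 ± 0.096 SE), the oxidised lipoprotein receptor gene Olr1 (-0.73 ± 0.086 SE) and Myof (-1.15 ± 0.16 SE) fell. The interferon-inducible gene Ifi204 fell as well (log2 fold change -2.78 ± 0.34 SE), but it belongs to a cluster of similar genes, so its reads are uncertain.

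The hypoxia cultures are a separate experiment, with 4 libraries per genotype of the same strain label taken after 24 hours, and they share no library with normoxia. In them 5245 of 15018 genes (34.9%) were called by edgeR. Of the 1556 normoxia calls tested in both, 1482 (95.2%) had the same sign in hypoxia, 1198 (77%) were called in the same direction, and 13 (0.835%) were called in the other. The difference of the effects was called for 73 of 15325 genes (0.476%), 201 with DESeq2. It was 40 to 48 without normoxia WT 2 or 4 or KO 3, or without hypoxia WT 1, 2 or 3 or KO 2 or 4. Oxygen cannot be told apart from culture time and from the experiment in this contrast.

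**Figure D3:**
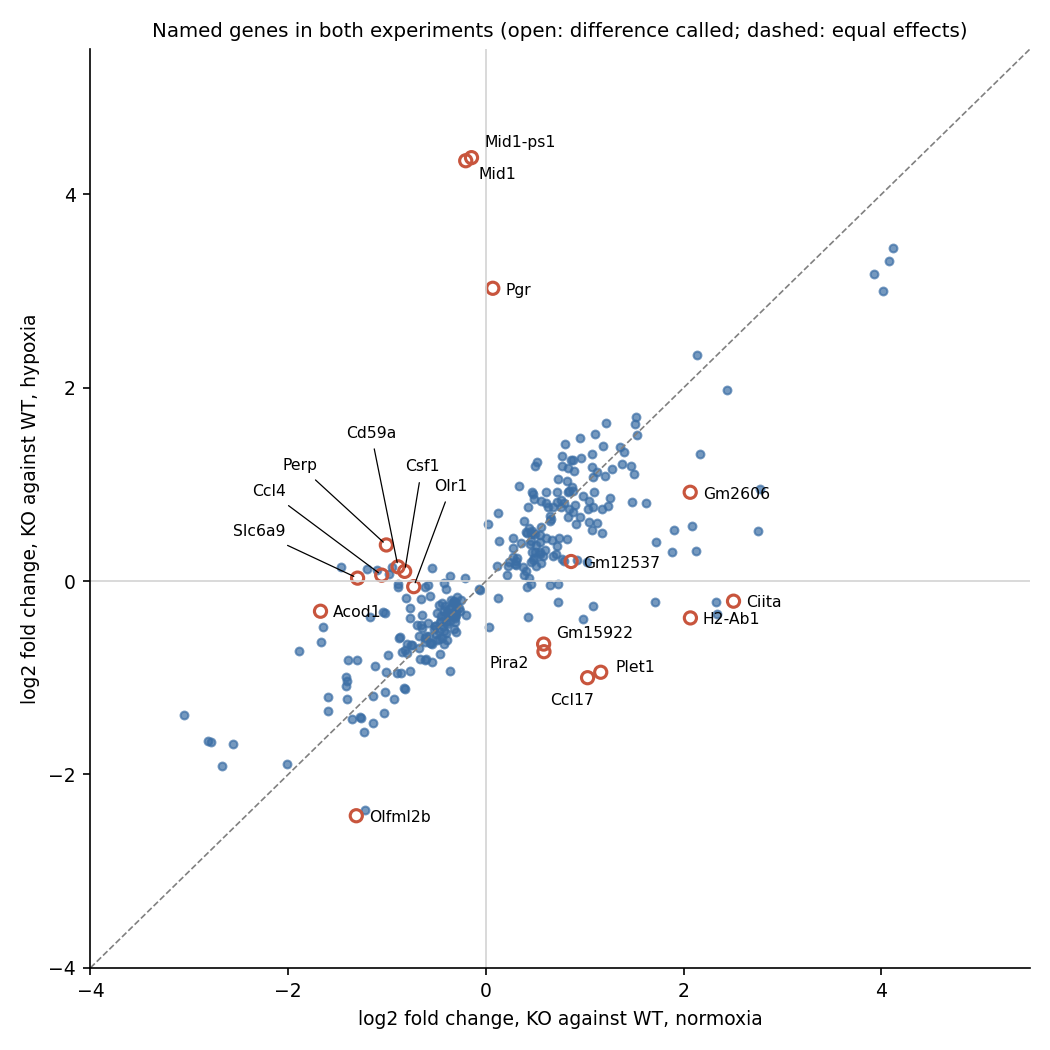
Log2 fold change of KO against WT in normoxia (x axis) and hypoxia (y axis) for the named genes tested in both, with open circles for those whose difference of effects was called and their names beside them. Of the 312 genes drawn, 229 lie within 0.5 of the diagonal, while Mid1 and Pgr lie above it and Plet1, Pira2 and Ciita lie below it.

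Several antigen presentation and dendritic cell genes had an effect in normoxia that differed from that in hypoxia, and the last 4 of those below were chosen after their values were seen. Ciita had a log2 fold change of 2.50 in normoxia and -0.21 in hypoxia (difference -2.71 ± 0.46 SE, adjusted p = 0.0137 by edgeR). H2-Ab1 had log2 fold changes of 2.07 and -0.38 (adjusted p = 0.041) and Ccl17 of 1.03 and -1.0 (adjusted p = 0.00725). The activation and tissue markers Il2ra (CD25) at 1.99 and -0.65 and Itgae (CD103) at 1.49 and -1.16, the dendritic cell factor gene Zfp366 at 2.02 and -0.61 and the tryptophan enzyme gene Kmo at 0.96 and -0.10 were called in the same way, with adjusted p = 0.000381, 0.00822, 0.0192 and 0.00725 for the difference. The 13 class II genes tested had a median log2 fold change of 0.23 in normoxia and -0.21 in hypoxia.

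Other effects differed in size or sign. Acod1 had log2 fold changes of -1.67 in normoxia and -0.31 in hypoxia (difference 1.37 ± 0.16 SE, adjusted p = 0.000314). Csf1 stood at log2 fold changes of -0.82 and 0.10 (adjusted p = 0.00403), and the epithelial membrane gene Perp at -1.01 and 0.37 (adjusted p = 0.000317). Pira2 rose in normoxia (log2 fold change 0.59) and fell in hypoxia (-0.73), and Plet1 likewise (1.16 and -0.94). Mid1 and its pseudogene Mid1-ps1 on the sex chromosomes (log2 fold change -0.20 and -0.15, neither called) and the progesterone receptor gene Pgr (0.069, adjusted p = 0.851) did not pass in normoxia and were called higher in hypoxia (4.35, 4.38 and 3.03). The processed pseudogenes Gm2606 (101, 80.1, 89.6 and 95.2 CPM in WT and 383, 361, 428 and 359 CPM in KO) and Gm12537 (log2 fold change 0.86 ± 0.090 SE) rose more in normoxia than in hypoxia (0.92 and 0.20). Gm2606 had no overlap, but processed pseudogenes share sequence with other genes, so the source of these reads is uncertain.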

How the data were processed

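Per the submitters' processing notes, the authors used Subread and featureCounts with GRCm38.p6; their versions are not given in the sources used here. The deposited whole-number counts per gene were used as they stand, and the authors' DESeq2-normalized tables were not used. RNA-seq libraries were made with a SMART-Seq kit, per the labels' protocols. Symbols came from GENCODE M21 for 23860 of 23912 identifiers. Genes passing filterByExpr were tested with edgeR 4.0.16 in R 4.3.3 (TMM, robust quasi-likelihood, Benjamini-Hochberg 0.05), and the difference of effects as an interaction over 16 libraries. DESeq2 1.42.0, other scalings and filters, a fold threshold, a replicate block and left-out libraries were alternatives. The fits were tested on simulated counts.

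Gene lists, members and alternatives were chosen with earlier results of these data known. Named genes are up to 5 called members per list by p, up to 3 in the other direction, 34 fixed genes, 10 per direction on no list by p, 10 per direction by CPM difference, and 6 per direction by the difference of effects. Cybb, Tlr4, Cd68, Ccr2, Rfx5, Rfxap, Zbtb46, Xcr1, Clec9a, Cpt1a, Acadm, Itgb2, Nfe2l2, Decr1, Hadh, Pilrb2, Srgn, Ear2, Ear6, Il2ra, Itgae, Zfp366 and Kmo were chosen after their values were seen.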

Additional observations from a re-analysis of the deposited data

Results flagged for a closer look

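In 3 of the 94 groups of 4 libraries whose levels were screened, 1 library stood far from the other libraries of its genotype, and chance alone gives about 1 in 20. Ass1 in KO replicate 4 was at 85.5 CPM, below the other KO libraries. Csf3r in WT replicate 3 was at 261 CPM, above the other WT libraries and still below all KO libraries. Slc7a2 in WT replicate 2 was at 23.7 CPM, the lowest of WT and still above all KO libraries.

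For 21 of the genes named above, the test of the difference of KO effects between hypoxia and normoxia passed at an adjusted p under 0.05 by edgeR. On the log2 scale and as hypoxia minus normoxia, the difference was positive for Acod1 (1.37), Csf1 (0.92), Ccl4 (1.12), Slc6a9 (1.33), Olr1 (0.67), Perp (1.38), Pgr (2.96), Mid1 (4.55) and Mid1-ps1 (4.53). It was negative for Ciita (-2.71), H2-Ab1 (-2.45), Ccl17 (-2.03), Il2ra (-2.64), Itgae (-2.65), Zfp366 (-2.63), Kmo (-1.06), Plet1 (-2.10), Pira2 (-1.32), Olfml2b (-1.12), Gm2606 (-1.15) and Gm12537 (-0.66).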

How the results depend on the processing

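The number of genes called in normoxia was 1571 with upper-quartile scaling, 1615 without a filter and 1466 with a filter of 1 CPM in 4 libraries. It was 2399 by DESeq2, 416 against a fold threshold of 1.2, 2881 without both KO replicate 4 and WT replicate 3, and 469 to 2233 with 1 library left out. Calls among list genes, 317 of 1470, became 100 against the fold threshold, 507 without that pair and 109 to 413 with 1 library left out. The 73 differences between experiments became 201 by DESeq2 and 40 to 100 with 1 library left out, and the hypoxia count ranged from 3859 to 5703. The Vsir difference in mean log2(CPM + 1) was -2.03, and -2.19 to -1.93 with 1 library left out. Of up to 306 named genes compared under each alternative, 0 changed sign where called, but library size alone turned the balance of all calls, as given above. Of 313 named genes, 290 were called, and 124 of these kept their call without each library in turn.

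The replicate numbers of the labels are not stated to pair cultures. Same-numbered libraries had correlations of their deviations of 0.0894, 0.602, 0.224 and -0.0786 in normoxia and of -0.398 to 0.0466 in hypoxia. With a replicate block the counts were 2278 in normoxia, 440 among list genes, 40 for the difference and 3942 in hypoxia.

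At the depth of these libraries and before TMM scaling, 1 CPM stood for 23.4 counts or more, which limits the genes named near or below that level. After scaling it stood for fewer counts in KO replicates 3 and 4 (TMM factors 0.945 and 0.926). With 4 cultures per genotype, 1 library decided many calls. The cause was not tested.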

Other observations

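Classes of transcripts other than protein-coding genes moved unequally. Of 273 antisense genes tested, 30 rose and 3 fell (median log2 fold change 0.31), and of 280 lincRNA genes 34 rose and 3 fell (median 0.24). Processed transcripts leaned the same way, with 15 higher and 1 lower of 159, as did the TEC class of GENCODE, transcripts yet to be checked by experiment, with 12 higher and 1 lower of 143. Processed pseudogenes leaned the other way, with 16 higher and 37 lower of 1148 (median -0.20). Protein-coding genes had 849 higher and 532 lower of 11589 (median -0.019). With genes split into 4 groups by exon length, the median log2 fold change ran from -0.081 in the shortest group to 0.031 in the longest.

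Calls were spread over the genome. Chromosome 1 held the highest share, 138 of 859 genes (16.1%), and chromosome 13 the lowest, 50 of 560 (8.93%). Within 10 Mb either side of Vsir on chromosome 10, 11 of the 91 other genes tested were called (12.1%), beside 11.3% of all genes.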
